A study of Rattus norvegicus with 132 samples.

Results

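Heat shock response genes were followed across injury and kidney area in a spatial profile of rat kidney. The 6 genes are Zfand2a, Hspa1a, Dnajb1, Dnaja1, Hsp90ab1 and Hspe1, taken by name from the 9271 genes of the deposited table, and all 6 were among the 8827 genes that passed the filter on low values. Sections of formalin-fixed, paraffin-embedded kidney came from 3 rats in each of 4 groups, RM, HS, RM-HS and Sham, in a series on acute kidney injury caused by trauma. The labels do not spell out RM and HS. Rhabdomyolysis (breakdown of skeletal muscle) and hemorrhagic shock are their common meaning in this field, and the labels give no strain, age, sex or time after injury. In each section, regions of interest (ROIs) were picked by hand in the cortex (C), the corticomedullary junction (CMJ), the glomeruli (G) and the medulla (M), and barcodes were released by light from a mouse whole-transcriptome probe set and sequenced. The fit held 34 RM ROIs, 29 HS ROIs, 32 RM-HS ROIs and 36 Sham ROIs.

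Cells answer misfolded protein by activating heat shock factor 1, which binds heat shock elements, inverted repeats of the unit GAA, in the promoters of chaperone genes. Hsp70 proteins such as the product of Hspa1a, the strongly inducible form, bind exposed hydrophobic stretches of unfolded proteins. The J-domain proteins encoded by Dnajb1 and Dnaja1 deliver such clients to Hsp70 and stimulate its ATPase. Hsp90ab1 encodes the constitutive cytosolic Hsp90, which completes the folding of kinases and steroid receptors, and Hspe1 encodes the lid of the mitochondrial chaperonin. Zfand2a encodes AIRAP, a zinc finger protein that associates with the proteasome and was described in mouse and human cells as induced by arsenite and by heat shock. In the kidney, proximal tubule cells are a known site of heat shock protein induction after injury.

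ROIs were compared on the authors' Q3-normalised signal, in which each ROI is scaled to the same 75th percentile, 58.2. Probes were designed for mouse and may bind rat transcripts unequally, so levels are compared between ROIs and not between genes. Recovered reads ran from 17894 to 2305964 per ROI, with a median of 93104 in glomeruli against 819487 in cortex, so glomerular values rest on few reads. The area names were borne out by summed signals of markers. That of 5 podocyte genes had group medians of 558 to 805 in glomeruli and 148 to 201 elsewhere. In Sham, 4 of the 5 were higher in glomeruli than in cortex and 1 was lower (limma, adjusted p under 0.05). Single runs had lower glomerular sums, with 343 to 460 in Sham 1 and 372 to 407 in HS 2. The sum of 3 straight proximal tubule genes had group medians of 4564 to 6673 at the junction against 324 to 514 in cortex. That of 3 thick ascending limb genes had 598 to 1788 in medulla against 157 to 169 in cortex. The 131 ROIs of the fit fell into 12 runs of consecutive wells, 3 per group, numbered here by group (RM 1 to RM 3). No label makes a run an animal or ties ROIs to animals, so some ROIs of a group share an animal and all p-values over ROIs are too small. All HS ROIs were on plate E together with Sham 3, and the other groups and Sham runs were on plate C. HS is thus separated from the plate by 12 Sham ROIs only. The 6 HS medulla ROIs all came from HS 1 and HS 2, since HS 3 had none there. HS averages over the areas carry this gap. A lower value in a region can mean fewer cells of a type or less RNA per cell, which cannot be told apart here.

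Promoters of the 6 genes were read from RefSeq (rat, GRCr8), as the 250 bases before and the 50 after each start site, and searched for GAANNTTC or TTCNNGAA, which are 2 units of the heat shock element, and for GAANNTTCNNGAA or TTCNNGAANNTTC, which are 3. Each 2-unit motif is its own reverse complement and the pair of 3-unit motifs are reverse complements of each other, so both strands were covered. The 4 promoters with a match are shown because the genes' responses are compared below, with the matched bases in capitals; overlapping matches run together.
Hspe1, chr9:64084077-64084376, plus strand: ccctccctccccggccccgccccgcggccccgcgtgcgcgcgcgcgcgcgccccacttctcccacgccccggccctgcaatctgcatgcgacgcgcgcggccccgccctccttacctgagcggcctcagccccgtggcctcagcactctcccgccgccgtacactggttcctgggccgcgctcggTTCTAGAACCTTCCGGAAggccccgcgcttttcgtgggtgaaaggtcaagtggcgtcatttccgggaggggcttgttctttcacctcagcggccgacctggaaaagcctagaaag
Dnaja1, chr5:60638154-60638453, plus strand: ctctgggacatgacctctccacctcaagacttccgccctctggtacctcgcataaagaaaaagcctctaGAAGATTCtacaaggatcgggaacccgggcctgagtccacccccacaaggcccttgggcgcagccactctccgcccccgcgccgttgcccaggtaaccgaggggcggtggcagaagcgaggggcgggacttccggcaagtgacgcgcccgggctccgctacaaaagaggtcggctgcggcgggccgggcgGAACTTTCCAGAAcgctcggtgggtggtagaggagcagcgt
Dnajb1, chr19:41431092-41431391, minus strand: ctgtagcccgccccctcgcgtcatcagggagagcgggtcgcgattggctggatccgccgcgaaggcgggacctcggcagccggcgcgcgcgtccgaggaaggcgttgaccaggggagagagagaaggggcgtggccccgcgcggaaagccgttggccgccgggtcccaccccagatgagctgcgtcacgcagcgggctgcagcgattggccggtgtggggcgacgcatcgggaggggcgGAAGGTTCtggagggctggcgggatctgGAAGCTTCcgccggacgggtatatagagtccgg
Zfand2a, chr12:20275200-20275499, plus strand: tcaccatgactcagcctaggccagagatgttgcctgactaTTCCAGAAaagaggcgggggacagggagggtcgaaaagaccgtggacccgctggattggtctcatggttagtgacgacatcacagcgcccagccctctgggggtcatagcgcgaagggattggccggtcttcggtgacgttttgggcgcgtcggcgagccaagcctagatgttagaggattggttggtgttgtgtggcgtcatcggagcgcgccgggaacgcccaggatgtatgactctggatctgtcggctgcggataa
The window of Hspe1, the mitochondrial co-chaperonin, held 3 overlapping 2-unit matches that make up 2 overlapping 3-unit matches, the first beginning at base -65. Dnaja1 held 3 2-unit matches, at -181, 9 and 14, of which the last 2 overlap and form a 3-unit match. Dnajb1 held 2, at -11 and 17, and Zfand2a held 1, at -210. The windows of Hspa1a (chromosome 20) and Hsp90ab1 (chromosome 9) held no match. Only 1 window per gene, at its RefSeq start site, was searched, so elements farther out or at another start site would be missed. The lack of a match there does not mean that a gene lacks heat shock elements. For comparison, 15.9% of 33469 rat promoter windows of that length held a 2-unit match and 0.798% a 3-unit match. The matches are a description of the letters and not of binding.

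Zfand2a, the AIRAP gene, rose in both groups with RM, most in cortex and at the junction. In RM cortex its normalised signal was 252 at the lowest, 715 at the median and 1316 at the highest of 9 ROIs, in HS cortex it was 35.2, 43.6 and 45.2, in RM-HS cortex it was 188, 411 and 593, and in Sham cortex it was 38.5, 49.8 and 63.0. The RM and RM-HS ranges lay far above the Sham range, whereas the HS range overlapped it. At the junction the lowest, median and highest values were 251, 369 and 728 in RM, 36.0, 69.5 and 96.9 in HS, 303, 355 and 428 in RM-HS, and 29.6, 44.0 and 54.7 in Sham. Here too both groups with RM were clear of Sham, and 6 of 9 HS ROIs lay above the highest Sham ROI.

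In glomeruli Zfand2a had values of 103, 177 and 291 (lowest, median, highest) in RM, of 11.6, 34.9, 38.8, 38.8 and 46.5 in the 5 HS ROIs, of 89.2, 102 and 119.5 in RM-HS, and of 19.4, 37.0 and 81.4 in Sham. In medulla it had 62.4, 74.3 and 97.9 in RM, 25.4, 40.6 and 43.6 in HS, 75.2, 88.9 and 110.1 in RM-HS, and 35.2, 50.1 and 60.8 in Sham. In each of the 4 areas, all ROIs of RM (34 in total) and of RM-HS (32 in total) exceeded the highest Sham ROI of that area. A gap of this kind above Sham was held by 2.06% of all genes in RM cortex, 5.09% at the RM junction, 0.600% in RM glomeruli and 4.66% in RM medulla, and by 1.11%, 4.64%, 0.227% and 4.01% in the same areas of RM-HS. In HS none of the 6 genes had such a gap in any area, and neither did more than 0.521% of all genes (0.113% for cortex, 0.521% for junction, 0.0680% for glomeruli and 0.227% for medulla).

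**Figure D1:**
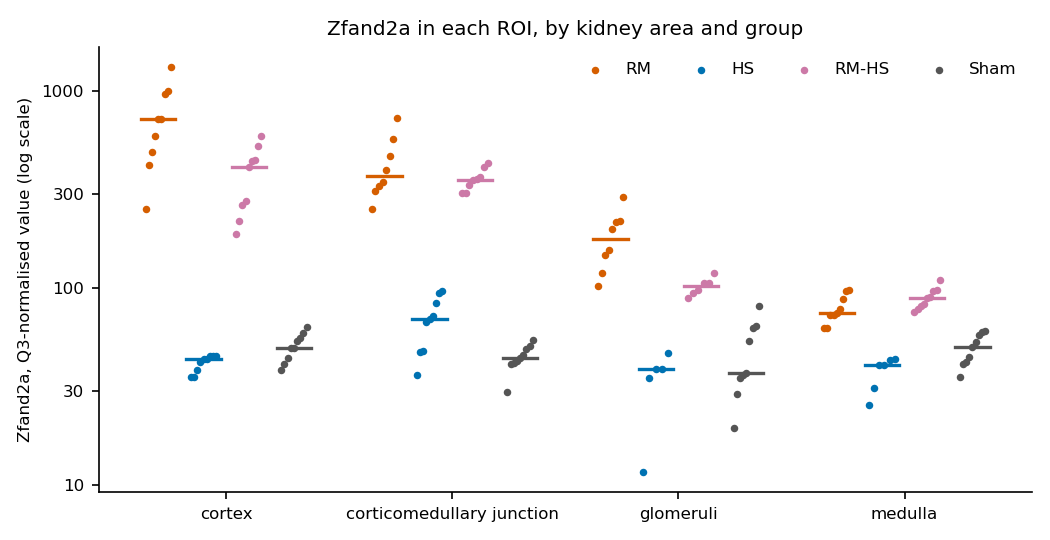
Zfand2a in each ROI (points; Q3-normalised signal on a log axis) by area and group, with a bar at the group median. RM and RM-HS points lie above all Sham points in each area, by a factor that is largest in cortex and junction, and HS points overlap Sham.

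In the limma fit, on the log2(value + 1) scale, which understates changes of low values, the log2 fold change of Zfand2a in RM against Sham was 3.52 ± 0.22 (SE) in cortex, an 11.4-fold difference, with an adjusted p of 1.22e-29, the lowest p of all 8827 genes in that contrast. It was 3.00 ± 0.22 at the junction and 1.82 ± 0.22 in glomeruli, both called at an adjusted p under 0.05. In medulla it was 0.51 ± 0.22 with an adjusted p of 0.232, so the small medullary difference did not pass although the ROI ranges were apart; without the plate term it was 0.66 with an adjusted p of 0.0415, and edgeR's quasi-likelihood test on recovered reads gave 0.61 with an adjusted p of 0.00499. In RM-HS the values were 2.63 ± 0.22 (cortex), 2.82 ± 0.22 (junction), 1.10 ± 0.24 (glomeruli) and 0.70 ± 0.22 (medulla, adjusted p 0.0443), all called by limma. The medullary call held in 12 of 21 alternatives, was lost without any single RM-HS or Sham run, and had an adjusted p of up to 0.554. The glomerular call was lost with edgeR (0.92, adjusted p 0.167) and with array weights (1.06, adjusted p 0.834). In HS, the value at the junction was 0.86 ± 0.25 with an adjusted p of 0.164. Its means by run were 83.2 in HS 1, 77.8 in HS 2 and 43.7 in HS 3, and without HS 3 the value became 1.15 with a limma adjusted p of 0.000492; edgeR called it with all runs (0.87, adjusted p 0.00377).

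Averaged over the areas with equal weights, all 6 genes were higher in RM than in Sham at an adjusted p under 0.05, where 7.52% of all genes rose. Zfand2a had a log2 fold change of 2.21 ± 0.16 (4.63-fold, limma adjusted p 4.69e-24). Dnaja1 had 1.32 ± 0.14, Hsp90ab1 1.10 ± 0.17, Hspe1 0.86 ± 0.17 and Dnajb1 0.64 ± 0.17, the last with an adjusted p of 0.00375. Hspa1a had 1.26 ± 0.27, which is not ranked with the others: its Sham signal was near the negative probe, so that its fold changes over Sham here and below may be understated. Zfand2a was low in Sham too: it exceeded 2 times the negative probe in 4 of 9 cortical, 3 of 9 junction and 5 of 9 glomerular ROIs. Dnajb1 did so in 2 of 9 Sham cortical ROIs and Hspe1 in 4 of 9 Sham glomerular ROIs. Fold changes of these genes in those areas may be understated. The median over all genes was -0.06. In RM-HS, 5 of 6 genes rose, where 5.99% of all genes did. Zfand2a had 1.81 ± 0.16, Hspa1a 1.38 ± 0.27, Dnaja1 0.97 ± 0.15, Hsp90ab1 0.63 ± 0.17 and Dnajb1 0.55 ± 0.17, and Hspe1, the gene not called, had 0.43 ± 0.17 with an adjusted p of 0.126. In HS none of the 6 was called (0.170% of all genes were, in either direction), and their log2 fold changes lay between -0.53 (Hspe1) and 0.23 (Hspa1a). At an unadjusted p under 0.05, 1 of the 6 differed in HS, Hspe1, and edgeR called 0. The share of all genes at an unadjusted p under 0.05 was not counted, here or for the counts below. Without RM-HS 3 or without Sham 1, the RM-HS calls numbered 3.

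**Figure D2:**
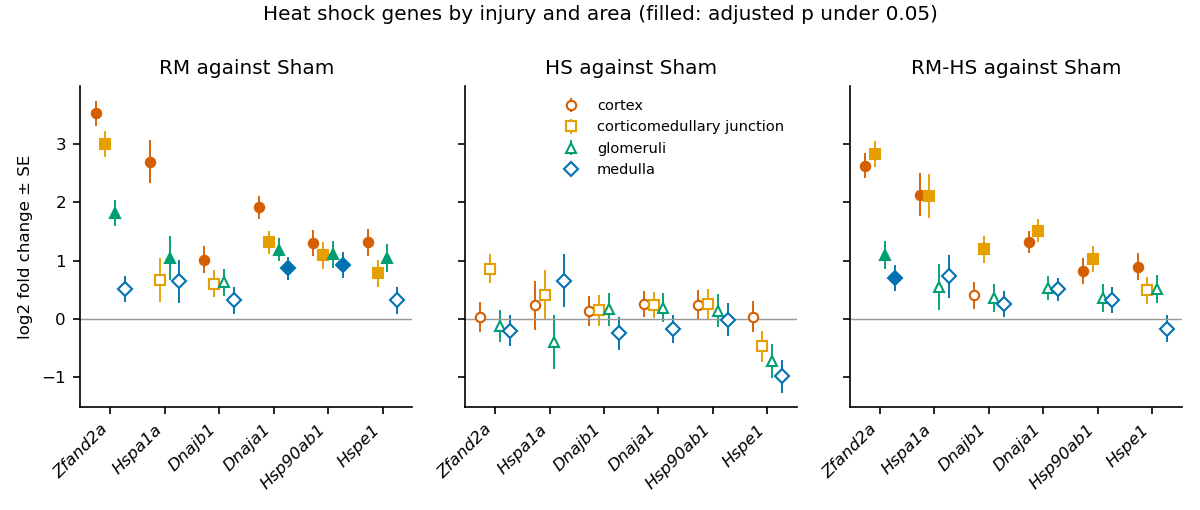
Log2 fold change against Sham (± SE, limma) of the 6 genes in each area, for RM, HS and RM-HS; filled symbols have an adjusted p under 0.05. Zfand2a and Hspa1a reach 3.52 and 2.69 in RM cortex, medullary values are the lowest of the 4 areas for each gene in RM, and no symbol is filled in HS.

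Area by area, the calls in RM numbered 6 of 6 genes for cortex (5.27% of all genes rose there), 4 for the junction (4.86%), 5 for glomeruli (10.1%) and 2 for medulla (4.84%). Glomerular calls of limma may be too many: in simulated data it called genes that had not been changed mostly in glomeruli. EdgeR called 3 of the 6 in RM glomeruli (2.29% of all genes) and 0 in RM-HS glomeruli (0.589%). The genes that passed in medulla were Dnaja1 (0.87 ± 0.20) and Hsp90ab1 (0.92 ± 0.22). In RM-HS they numbered 5 for cortex (3.58%), 5 for the junction (5.15%), 1 for glomeruli (5.15%) and 1 for medulla (3.59%), the gene being Zfand2a in both of the last areas. In HS limma made 0 calls in each area, where 0.0793%, 0.283%, 9.52% and 0.374% of all genes were called in either direction (cortex, junction, glomeruli and medulla); at an unadjusted p under 0.05, 0, 1, 1 and 1 of the 6 differed in the same order, and edgeR called 2 in all. Without Sham 1 the RM calls over the 4 areas numbered 10 in place of 17, and without Sham 3 the HS calls numbered 4. Shares of all genes over the 4 areas are not given for these refits or for the unadjusted p. Such counts are therefore not read as a result about the 6 genes.

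Several cell type markers moved with injury as well. Of the 7 proximal tubule genes tested (8 were listed), 2 rose in RM cortex and 3 in RM-HS cortex, with median log2 fold changes of 0.76 and 0.77. Slc13a3, a dicarboxylate transporter, was called in both, at 1.16 ± 0.24 in RM and 1.13 ± 0.24 in RM-HS. At the junction 1 of the 7 rose in RM and 1 in RM-HS, and the medians of the list were -0.12 and 0.08. With 1 of the 7 called, the sum of the 7 genes does not stand for the list, as genes with the most signal weigh most in it. That sum was higher in RM and RM-HS there all the same. Its medians were 6976 in RM, 4236 in RM-HS, 1937 in HS and 2752 in Sham. The RM range, 5506 to 8605, lay above the Sham range, 1870 to 3243. In glomeruli both endothelial genes tested, Flt1 and Ptprb, rose in RM and RM-HS, and their sum had medians of 249.7 in RM, 224 in RM-HS and 112 in Sham. In HS glomeruli 1 of the 2 rose, and the sum had a median of 204. In medulla, 2 of 3 genes of the thick ascending limb and 1 of 3 of the collecting duct fell in RM and 1 of 3 of each in RM-HS. In HS medulla 1 of 3 of the thick ascending limb and 0 of 3 of the collecting duct fell. Median log2 fold changes of the thick ascending limb genes in medulla were -0.80 in RM, -0.82 in HS and -0.49 in RM-HS. The thick ascending limb sum had medians of 598 in RM, 911 in HS, 862 in RM-HS and 1788 in Sham there. The collecting duct sum had 207, 485, 344 and 550 in the same order. Of 4 macrophage genes, 3 rose in RM-HS medulla, where the sum had a median of 314 against 193 in Sham. The part of these cell types in the results was not tested.

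Hspa1a, the inducible Hsp70 gene, was close to background in Sham and differed widely between runs of injured kidney. In cortex its signal was 26.3, 273 and 495 (lowest, median, highest) in RM, 18.5, 26.8 and 42.9 in HS, 26.0, 114 and 305 in RM-HS and 16.3, 25.2 and 30.9 in Sham. No Sham cortex ROI exceeded 2 times its negative-probe value, against 6 of 9 RM ROIs and 7 of 9 RM-HS ROIs. Within RM, the cortex of RM 1 held 252 to 299, that of RM 2 held 354 to 495, and that of RM 3 held 26.3 to 35.9, so RM 3 overlapped the Sham range, whereas its Zfand2a values, 252 to 487, lay far above Sham. Within RM-HS, the cortex of RM-HS 1 held 184 to 286, that of RM-HS 2 held 67.7 to 114, and the 3 ROIs of RM-HS 3 had 26.0, 29.6 and 305. The ROIs of RM-HS 3 thus spanned the values of the other RM-HS runs.

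**Figure D3:**
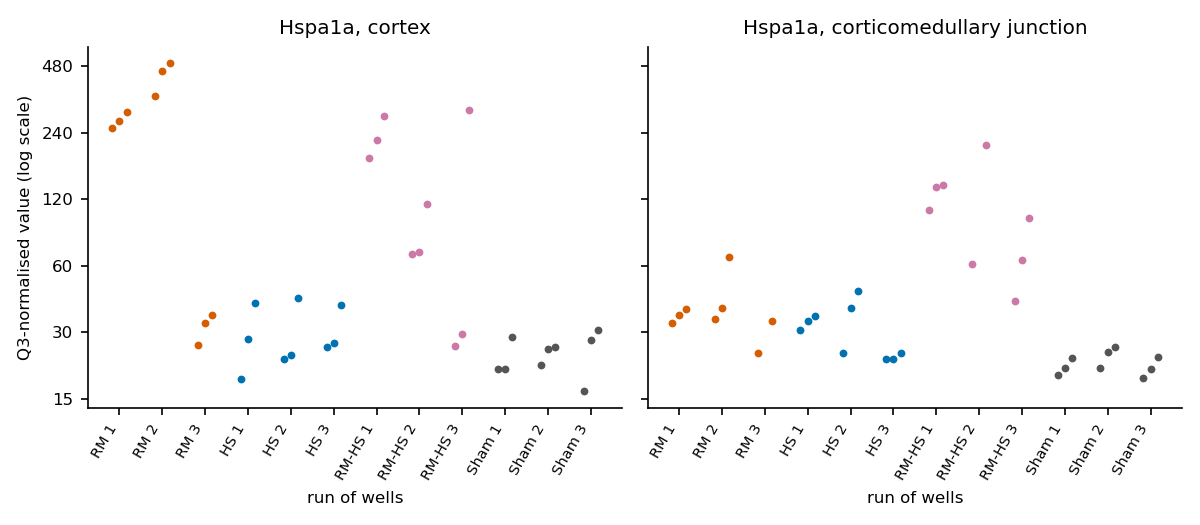
Hspa1a in each ROI (points; Q3-normalised signal on a log axis) by run of wells in cortex and at the junction. In cortex, RM 1 and RM 2 lie at 252 to 495 and RM 3 at 26.3 to 35.9; at the junction, RM-HS runs hold 41.8 to 211.

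At the junction Hspa1a had 24.2, 35.2 and 65.9 in RM, 22.8, 30.8 and 46.2 in HS, 41.8, 103 and 211 in RM-HS and 18.6, 20.8 and 25.7 in Sham. All 8 RM-HS ROIs lay above Sham, and 7 of 8 RM ROIs did by a smaller margin. The log2 fold change against Sham was 2.69 ± 0.37 in RM cortex and 2.12 ± 0.37 in RM-HS cortex, and 2.10 ± 0.37 at the RM-HS junction, all called by limma. At the RM junction it was 0.67 ± 0.37 with an adjusted p of 0.407. The direct difference, RM-HS over RM at the junction, was 1.43 ± 0.36 with a limma adjusted p of 0.0337, the only 1 of the 6 genes called there (0.249% of all genes were higher), and the call was lost in 7 of 20 alternatives. In glomeruli Hspa1a had 13.7, 57.8 and 107 in RM against 8.31, 29.1 and 40.7 in Sham, with a log2 fold change of 1.05 ± 0.37 (adjusted p 0.0467). That call held in 7 of 20 alternatives, with an adjusted p of up to 0.799, and the value ran from 0.59 to 1.59 when single runs were left out. In medulla no group was called: the medians were 44.2 in RM, 49.7 in HS, 50.9 in RM-HS and 29.1 in Sham. Without RM 2 the RM average of Hspa1a fell short of the threshold (0.87, limma adjusted p 0.063). Hspa1a has a near-identical neighbour, Hspa1b, not analysed here, and reads of the probe may come from both.

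Dnajb1, the J-domain partner of Hsp70 that is itself heat-inducible, rose in cortex in RM and at the junction in RM-HS. In RM cortex it had 43.1, 88.1 and 183 (lowest, median, highest), in RM-HS cortex 49.2, 59.9 and 64.6, and in Sham cortex 33.8, 43.6 and 58.2. At the junction it had 67.0, 79.0 and 159 in RM, 85.0, 134 and 206 in RM-HS and 43.9, 54.8 and 69.8 in Sham. All RM-HS junction ROIs were clear of Sham, and the cortical RM-HS range overlapped it. The log2 fold change was 1.02 ± 0.23 in RM cortex (adjusted p 0.000712) and 1.19 ± 0.23 at the RM-HS junction (adjusted p 5.16e-05), the only calls limma made for it among the 3 injuries and 4 areas. It was 0.61 ± 0.23 at the RM junction (adjusted p 0.134) and 0.41 ± 0.23 in RM-HS cortex (adjusted p 0.533). The RM-HS over RM difference was -0.61 ± 0.22 in cortex and 0.58 ± 0.22 at the junction, neither called. Its averages depended on single runs: the RM average was 0.43 (adjusted p 0.223) without RM 2 and 0.55 (adjusted p 0.264) without Sham 1, and the RM-HS average was 0.47 (adjusted p 0.605) without Sham 1.

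Dnaja1, the constitutive J-domain cochaperone of cytosolic Hsp70, rose in RM in all 4 areas and in RM-HS in cortex and at the junction. Cortical values were 202, 423 and 916 (lowest, median, highest) in RM, 227, 256 and 382 in RM-HS and 93.1, 109.5 and 149 in Sham, and both injured ranges lay above the Sham range. At the junction they were 323, 392 and 565 in RM, 326, 442 and 813 in RM-HS and 125, 170 and 276 in Sham, again without overlap. In medulla they were 175, 184 and 339 in RM, 137, 162 and 179 in RM-HS and 109.5, 116 and 153 in Sham, with overlap for RM-HS only. Glomerular medians were 204 in RM, 123 in RM-HS and 89.9 in Sham. The RM log2 fold change was 1.91 ± 0.20 (cortex), 1.31 ± 0.20 (junction), 1.18 ± 0.20 (glomeruli) and 0.87 ± 0.20 (medulla), each called by limma. In RM-HS it was 1.32 ± 0.20 in cortex and 1.51 ± 0.20 at the junction, both called, and 0.53 ± 0.21 in glomeruli and 0.51 ± 0.20 in medulla, not called. The averages were called in all 21 alternatives, at 0.90 to 1.53 for RM and 0.65 to 1.04 for RM-HS.

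Hsp90ab1, the constitutive Hsp90, rose in RM in all 4 areas and in RM-HS in cortex and at the junction. In cortex it had 228, 378 and 579 (lowest, median, highest) in RM, 207, 235 and 387 in RM-HS and 106, 156 and 209.7 in Sham. At the junction it had 419, 529 and 613 in RM, 389.7, 508 and 610.5 in RM-HS and 159, 268 and 322 in Sham. In medulla it had 305, 362 and 559 in RM, 223, 242 and 304 in RM-HS and 158, 209 and 246 in Sham. RM ranges were clear of Sham in these 3 areas and the RM-HS range at the junction alone. The RM log2 fold change was 1.29 ± 0.22 (cortex), 1.09 ± 0.23 (junction), 1.11 ± 0.23 (glomeruli) and 0.92 ± 0.22 (medulla), all called, and its adjusted p for a difference between areas was 0.862 in limma's F test. In RM-HS it was 0.82 ± 0.22 in cortex and 1.03 ± 0.23 at the junction, both called, and 0.36 ± 0.24 and 0.33 ± 0.22 in glomeruli and medulla. The RM-HS average was no longer called after quantile normalisation (0.23, limma adjusted p 0.259) or without Sham 1 (0.32, adjusted p 0.988).

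Hspe1, the mitochondrial co-chaperonin, rose in RM in the areas outside the medulla. In cortex it had 86.1, 151 and 307 (lowest, median, highest) in RM, 82.9, 110.2 and 187 in RM-HS and 47.6, 79.1 and 128 in Sham, with overlap of both injured ranges with Sham. At the junction it had 184, 241 and 320 in RM, 164, 189 and 239 in RM-HS and 107, 178 and 212 in Sham. The RM log2 fold change was 1.31 ± 0.23 in cortex, 0.78 ± 0.23 at the junction (adjusted p 0.0220, called in 14 of 21 alternatives) and 1.04 ± 0.23 in glomeruli, all called, and 0.32 ± 0.23 in medulla (adjusted p 0.639). In RM-HS only cortex was called, at 0.90 ± 0.23 (adjusted p 0.00643). Medullary medians were 76.4 in RM, 50.1 in HS, 50.9 in RM-HS and 85.8 in Sham. Sham runs differed in this gene, with cortical means of 52.8 in Sham 1, 77.8 in Sham 2 and 112 in Sham 3, and its plate term, 0.82, had an adjusted p of 0.0576. Without Sham 1 the RM average was 0.54 with a limma adjusted p of 0.277.

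In HS the 3 runs did not look alike. HS 3 had higher Dnaja1, Hsp90ab1 and Hspe1 than HS 1, HS 2 or any Sham run, in cortex and at the junction. The cortical run means of Dnaja1 were 135 in HS 1, 124 in HS 2 and 263 in HS 3, against 102, 109 and 143 in Sham 1, Sham 2 and Sham 3. Those of Hsp90ab1 were 126, 131 and 356 in the HS runs, against 110.0, 172 and 177 in the Sham runs, and those of Hspe1 were 91.3, 72.1 and 239, against 52.8, 77.8 and 112. At the junction, HS 3 had means of 313 for Dnaja1, 531 for Hsp90ab1 and 268 for Hspe1, against 232, 292 and 202 in Sham 3, the Sham run on its plate. Dnajb1 had its highest HS and Sham run means in HS 3 as well, by a smaller margin, with 58.0 against 45.2 and 45.6 in HS 1 and HS 2 and 38.1 to 51.5 in the Sham runs in cortex, and 77.8 against 51.1 and 60.1 in HS 1 and HS 2 and 51.4 to 60.5 in the Sham runs at the junction. Zfand2a was lowest of the HS runs in HS 3, at 39.0 in cortex and 43.7 at the junction. Hspa1a, near background in these groups, had 29.2, 29.8 and 30.8 in HS 1, HS 2 and HS 3 in cortex, against 23.2 to 24.95 in the Sham runs, and 33.4, 36.4 and 23.2 at the junction, against 20.8 to 23.7. HS 3 also had the highest summed signal of the 7 proximal tubule markers among the HS and Sham runs in cortex. Its mean sum was 8704 against 2560 in HS 1, 1630 in HS 2 and 1393 to 3497 in the Sham runs. Genes with the most signal weigh most in this sum. HS 3 was more deeply sequenced, with 1105841 to 1872453 reads per cortical ROI against 187967 to 510154 in HS 1 and HS 2. The part of tubule content and depth in these values was not tested. Without HS 3, Hspe1 fell by 0.98 ± 0.16 in the HS average (limma adjusted p 3.88e-06). That value leans on the plate term of Hspe1, 0.82, which rests on Sham 3 as the only Sham run on plate E. Mean log2 levels over the areas were 6.16 in HS 1 and 5.61 in HS 2. The Sham runs had 5.67 (Sham 1), 6.33 (Sham 2) and 6.82 (Sham 3). When single runs were left out in turn, the HS average of Hspe1 ran from -0.98 to 0.30.

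**Figure D4:**
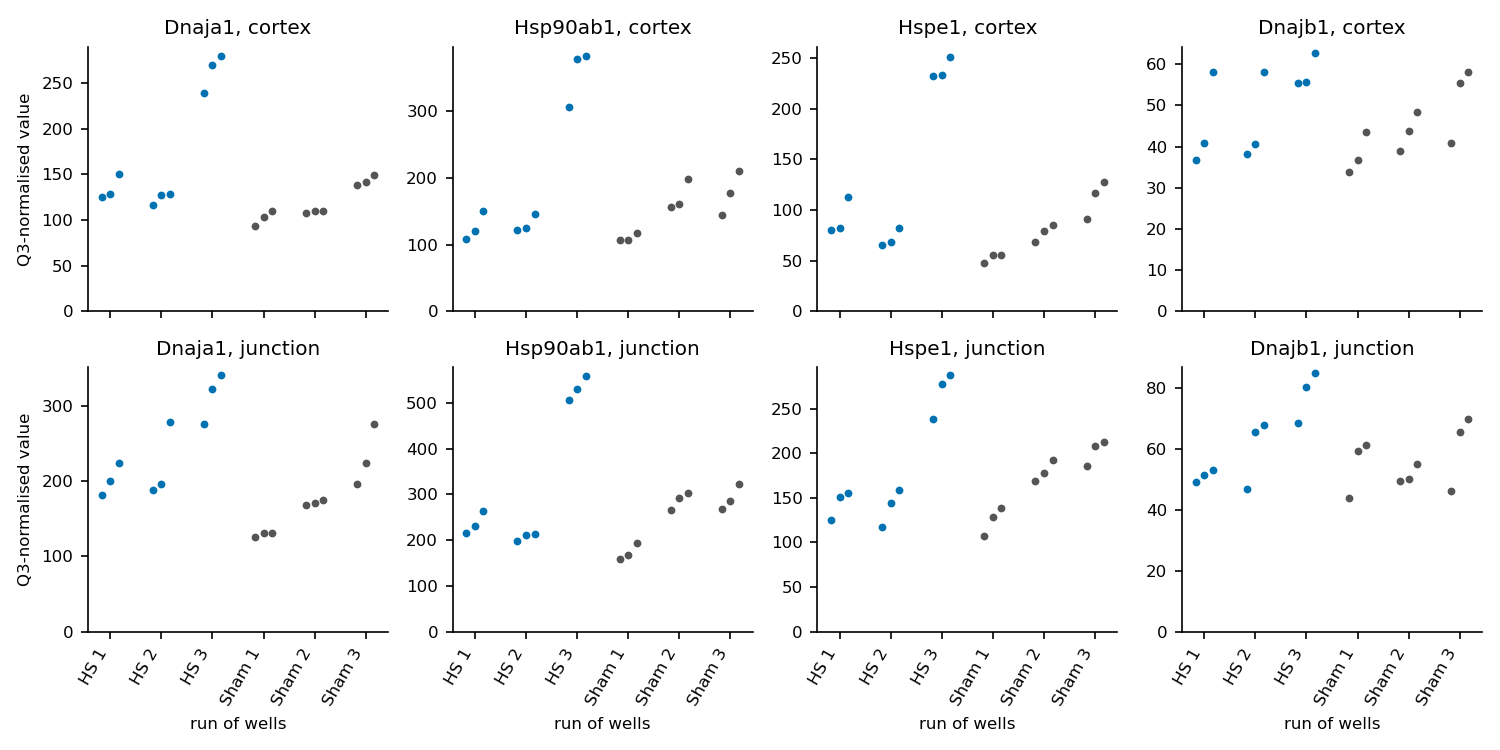
Dnaja1, Hsp90ab1, Hspe1 and Dnajb1 in each ROI (points; Q3-normalised signal, linear axis from 0) by run of wells, HS runs in blue and Sham runs in grey, in cortex (top) and at the junction (bottom). HS 3 lies above the other 5 runs in the cortical panels of Dnaja1, Hsp90ab1 and Hspe1, with means of 263, 356 and 239; for Dnajb1 its points overlap those of other runs.

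The combined injury was set against each single injury to ask what one adds to the other. RM-HS and RM differed in none of the 6 genes in the average over areas at a limma adjusted p under 0.05 (0.227% of all genes did, in either direction), with differences of -0.40 ± 0.15 for Zfand2a, 0.11 ± 0.25 for Hspa1a, -0.09 ± 0.15 for Dnajb1, -0.35 ± 0.13 for Dnaja1, -0.47 ± 0.15 for Hsp90ab1 and -0.43 ± 0.15 for Hspe1. At an unadjusted p under 0.05, for which no share of all genes was counted, 4 of the 6 were lower in RM-HS. EdgeR called 4 lower, where it called 5.57% of all genes lower. Both groups were on plate C. RM-HS against HS gave 2 calls (1.06% of all genes were higher); these groups lay on different plates and are joined by the plate term. The genes were Zfand2a at 1.66 ± 0.26 (limma adjusted p 7.6e-06) and Dnaja1 at 0.84 ± 0.24 (adjusted p 0.0489), a call that held in 10 of 20 alternatives. The interaction, RM-HS minus RM minus HS plus Sham, ranged from -0.63 ± 0.26 for Hsp90ab1 to 0.10 ± 0.27 for Hspe1, with 0 of 6 called by limma or edgeR (0.125% of all genes were called by limma) and 3 lower at an unadjusted p under 0.05. Single runs moved these counts: without HS 3, RM-HS was lower than RM in 4 genes, where 1.70% of all genes were, and higher than HS in 6, where 11.4% were. Without Sham 3, which also removes the plate term, it was higher than HS in 5, where 6.23% of all genes were, and the interaction was below 0 in 3, where 2.44% were. These contrasts share samples with those above.

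The RM and RM-HS effects differed between areas for most of the 6 genes. Limma's F test on the RM effect called Zfand2a (adjusted p 7.43e-22), Hspa1a (6.80e-05), Dnaja1 (0.00171) and Hspe1 (0.0203), 4 of 6, where 9.72% of all genes were called. On the RM-HS effect it called Zfand2a (1.27e-14), Dnaja1 (0.000159), Hspa1a (0.00208), Hspe1 (0.0139) and Dnajb1 (0.0259), 5 of 6 against 7.51% of all genes. On the HS effect it called Zfand2a (0.00378) and Hspe1 (0.0238), 2 of 6 against 13.6% of all genes. HS 3 had no medulla ROI, so HS differences that involve medulla cannot be told apart from that missing run. For Zfand2a in RM the fold change was 11.4 (cortex), 7.998 (junction), 3.53 (glomeruli) and 1.42 (medulla). Outside medulla many of its Sham ROIs lay within 2 times their negative probe, so those fold changes may be understated. When the ROIs of a run and area were averaged first, 2 of these 11 calls remained, Zfand2a in RM (adjusted p 1.15e-06) and in RM-HS (0.000196). Without Sham 2 there were 7.

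Without injury the areas differed in 3 of the genes. At the Sham junction against Sham cortex, Hspe1 was higher by 1.09 ± 0.18, Hsp90ab1 by 0.71 ± 0.18 and Dnaja1 by 0.55 ± 0.15 on the log2 scale (limma adjusted p 5.36e-07, 0.00191 and 0.00798), 3 of 6 where 6.94% of all genes rose. In Sham glomeruli the log2 difference of Hspe1 from cortex was -0.98 ± 0.18, 1 of 6 where 35.6% of all genes fell, and in Sham medulla 0 of 6 differed from cortex (11.7% of all genes did; at an unadjusted p under 0.05, 2 of the 6 were higher). Over the 16 combinations of injury and area, the mean log2 level spanned 4.33 for Zfand2a, 3.13 for Hspa1a (near background at its lowest), 2.75 for Hspe1, 2.22 for Dnaja1, 1.89 for Hsp90ab1 and 1.76 for Dnajb1. Other lowest levels were partly near background too. In HS glomeruli 3 of 5 ROIs of Zfand2a and 2 of 5 of Hspe1 exceeded 2 times their negative probe. In Sham glomeruli 6 of 9 ROIs of Dnajb1 did. Zfand2a and Hspa1a were highest in RM cortex, Dnajb1 and Dnaja1 at the RM-HS junction, and Hsp90ab1 and Hspe1 at the RM junction. For Zfand2a the order below RM cortex was the RM junction, RM-HS junction, RM-HS cortex, RM glomeruli, RM-HS glomeruli, RM-HS medulla, RM medulla and HS junction, with the 4 Sham areas and the other HS areas last. In none of the 6 genes did any of the 15 neighbouring pairs in this order have separate ROI ranges. Neighbours differed by more than the larger of their SDs 3 times for Zfand2a, 2 times for Hspe1, once for Hspa1a, Dnaja1 and Hsp90ab1, and never for Dnajb1.

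Other genes of the chaperone network were counted in lists together with the 6, and those that limma called in RM or RM-HS were all higher than in Sham. EdgeR called 24 higher and 1 lower in RM-HS, where it called 15.6% of all genes higher and 12.4% lower. Of 8 lists with 72 genes, 53 genes were in the table and 52 were tested; the list of heat shock factors had none in the table and is not analysed here. In RM, 24 of the 52 rose and 0 fell, where 7.52% of all genes rose. Leaving out the 6 genes, 18 of 46 rose, with a median log2 fold change of 0.29 against -0.06 for all genes. In RM-HS 15 of 52 rose and 0 fell (10 of 46 without the 6 genes), where 5.99% of all genes rose, and in HS 0 of 52 were called by limma or edgeR, with 4 lower at an unadjusted p under 0.05. The run HS 3 bore on this as well: without it, 12 of 52 fell in HS, where 4.96% of all genes fell. Without Sham 3 2 rose and 2 fell, where 3.66% of all genes rose and 7.86% fell. In RM the count was 11 without Sham 1 (3.21% of all genes rose) and 15 without RM 2 (5.74%). In RM-HS it was 4 without Sham 1 (2.04%), 6 without RM-HS 3 (3.41%), 8 without RM-HS 2 (4.2%) and 23 without HS 3 (12.1%), so the share of all genes called moved along with the count of the lists. The lists were chosen with earlier results of these data known.

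Of the Hsp70 system, 6 of 13 tested genes rose in RM, with Hspa1a, Dnajb1 and Dnaja1 among them. Others were St13 (0.68 ± 0.16), which encodes a cochaperone of Hsp70, and Bag3 (0.51 ± 0.12), a nucleotide exchange factor. Of the Hsp90 system, 3 of 8 rose, among them Hsp90ab1 and Ptges3 (1.10 ± 0.12), the latter encoding the cochaperone p23. Of the cytosolic chaperonin TRiC, which folds actin and tubulin, 4 of 7 subunit genes rose: Cct5 (0.99 ± 0.13), Cct4 (0.85 ± 0.16), Cct3 (0.80 ± 0.13) and Cct8 (0.65 ± 0.12). Of the endoplasmic reticulum chaperones, 5 of 9 rose, led by Hspa5 (1.16 ± 0.19), the Hsp70 of that compartment. Of the mitochondrial chaperones, 3 of 8 rose, Hspe1, Hspa9 (0.58 ± 0.14) and Lonp1 (0.49 ± 0.17), while Hspd1, the partner of Hspe1 in the mitochondrial chaperonin, had 0.28 and was not called. Of 2 small heat shock proteins, Cryab rose (0.84 ± 0.20) and Hspb1 (0.23) was not called. In the ZFAND family 2 of 5 rose, Zfand2a and the proteasome-binding Zfand5 (1.04 ± 0.14), and Zfand2b, the closest relative of Zfand2a, had -0.19 and was not called.

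In RM-HS the called genes outside the 6 with the largest fold changes were Zfand5 (0.88 ± 0.14), Hspa5 (0.70 ± 0.20), Ptges3 (0.61 ± 0.12), Cct5 (0.59 ± 0.13), St13 (0.58 ± 0.16) and Cct4 (0.54 ± 0.16). Of the 7 tested lists, TRiC had 3 of 7 called, the ER chaperones 2 of 9, the ZFAND family 2 of 5, the Hsp70 system 6 of 13, the Hsp90 system 2 of 8, and the mitochondrial chaperones and small heat shock proteins 0 of 8 and 0 of 2. Called genes of the 6 are included in these counts.

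**Figure D5:**
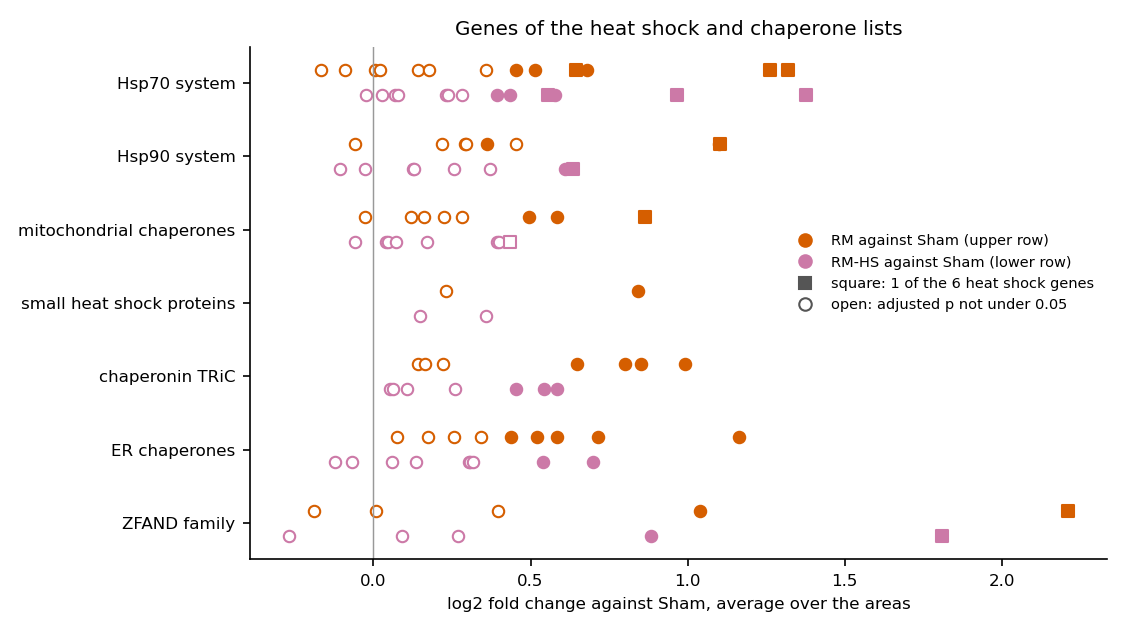
Log2 fold change against Sham, averaged over the areas, of each tested gene of 7 chaperone lists in RM (upper row of each list) and RM-HS (lower row); filled symbols have an adjusted p under 0.05 and squares are the 6 heat shock genes. Zfand2a, at 2.21 and 1.81, lies farthest right in both groups, and no filled symbol lies left of 0.

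Across the 16 means of injury and area, the genes whose pattern was most like that of Zfand2a were Maff (Pearson r 0.961), Atf3 (0.927), Gdf15 (0.898), Mafg (0.896) and F3 (0.893). Maff and Mafg encode small Maf transcription factors, Atf3 a stress-induced transcription factor, Gdf15 a stress-induced secreted factor and F3 tissue factor. Atf3 had RM log2 fold changes of 2.82 (cortex), 1.52 (junction), 0.88 (glomeruli) and 0.83 (medulla), and Maff of 1.59, 1.83, 0.71 and 0.27 in the same order. For Hspa1a the most similar genes were Atf3 (0.914), Jun (0.897), Jund (0.893), Bag3 (0.885) and Gdf15 (0.884). For Dnajb1 they were Ipo5 (0.937), Hsp90ab1 (0.926), Pcbp1, Ubb and Hnrnpdl, and for Dnaja1 Ubb (0.952), Eif4e, Cltc, Srsf6 and Pcbp1. For Hsp90ab1 they were Pcbp1 (0.984), Cct5, Ptges3, Eif3a and Sar1a, and for Hspe1 Akt1s1 (0.973), Dynll2, Erp29, Gabarap and Eny2. The means share libraries, plates and the Sham samples, so these values describe the profiles and carry no p.

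Among the 6 genes themselves, the correlation of the 16 means ran from 0.403 (Hspa1a with Hspe1) to 0.926 (Dnajb1 with Hsp90ab1), and Zfand2a was closest to Dnaja1 (0.873). Within groups the picture was looser. Over the 131 ROIs, after the mean of each injury and area was taken off, Zfand2a had a correlation of 0.350 with Hspa1a and of -0.255 with Hspe1, whereas Dnaja1 and Hsp90ab1 had 0.597 and Dnaja1 and Hspe1 0.546. By that measure the genes most like Zfand2a were Slc7a11 (0.499), a cystine transporter, Nip7, Pgghg, Opn4 and Nsa2. ROIs of a run share a plate, and the labels do not say what else they share, so these values too are descriptions.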

How the data were processed

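For each of 132 ROIs the deposited file gives 9271 genes and a negative-probe value. Its values are signal that the authors normalised to the upper quartile (Q3), per the file headers; their software is not stated, and the submitters' processing notes name the human builds GRCh38 and hg38. Each ROI's values were whole multiples of 1 factor within 1e-04, so reads were recovered. A gene was kept (8827; 444 dropped) when 10% or more of the ROIs had it above 2 times their negative probe. An RM glomerular ROI, alone on plate A, was not fitted, which left 131. With limma 3.58.1 (R 4.3.3), log2(value + 1) was fitted with 16 means of injury and area, a plate term and the well run as random block (consensus correlation 0.132, statmod 1.5.0), a variance trend and Benjamini-Hochberg adjustment over all genes, two-sided; called means an adjusted p under 0.05. The fit was tested on simulated data, where limma recovered the genes changed and also called unchanged ones, mostly in glomeruli; edgeR called few there. There were 10 alternatives, among them edgeR 4.0.16 on recovered reads, and 12 fits leaving out a well run. The 6 genes, the gene lists and the tests were chosen with earlier results of these data known. Besides the 6 genes, up to 6 called list genes per injury, list genes needed to describe a list, and the 5 genes most alike in profile were named. Promoters came from RefSeq (GRCr8), which matched all 6 genes.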

Additional observations from a re-analysis of the deposited data

Results flagged for a closer look

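In 6 of the 96 combinations of gene, group and area large enough to be tested, the highest ROI stood apart from the rest of its group; chance flags about 1 in 20 such groups. In RM, the ROI concerned was from RM 2 each time: Hspa1a at the junction was 65.9 against 38.6 in the next ROI, Hspa1a in medulla was 80.4 against 53.6, Dnajb1 at the junction was 159 against 100.4, and Dnaja1 in medulla was 339 against 248. In RM-HS, Dnaja1 reached 382 in a cortical ROI of RM-HS 3 against 304 in the next, and 813 in a junction ROI of RM-HS 2 against 522.

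An injury effect that differed between areas (limma F test, adjusted over all genes) was found for Zfand2a in RM (adjusted p 7.43e-22), RM-HS (1.27e-14) and HS (0.00378), for Hspa1a in RM (6.80e-05) and RM-HS (0.00208), for Dnaja1 in RM (0.00171) and RM-HS (0.000159), for Hspe1 in RM (0.0203), HS (0.0238) and RM-HS (0.0139), and for Dnajb1 in RM-HS (0.0259). HS medulla held ROIs of HS 1 and HS 2 only.

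The RM glomerular ROI on plate A, which entered no comparison, had a Zfand2a signal of 84.0, against 81.4 in the highest Sham glomerular ROI.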

How the results depend on the processing

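The RM average called 6 of 6 genes, and 4 to 6 without single well runs. The RM-HS average called 5, 3 from means per run and 3 to 6 without single runs. The HS average called 0, and 0 to 1 without single runs. By area, RM gave 17 calls of 24 (8 from means per run, 10 to 19 without single runs), RM-HS gave 12 (8 to 14 without single runs) and HS gave 0 (2 each after quantile normalisation, with edgeR and with array weights, 0 to 4 without single runs). RM-HS against RM called 0 (4 on plate C alone, 4 with edgeR, 0 to 4 without single runs), and RM-HS against HS called 2 (1 with a pseudocount of 5, 4 after quantile normalisation, 1 from means per run, 1 to 6 without single runs). The interaction called 0 (1 without the plate term, 0 to 3 without single runs). Differences between areas were called 11 times (2 from means per run, 7 to 11 without single runs), and areas within Sham 4 times (0 on plate E alone, 2 from means per run, 7 with array weights). Of the heat shock lists, RM called 24 (38 with edgeR, 11 to 33 without single runs), HS 0 (1 without the plate term, 0 to 12) and RM-HS 15 (24 on plate C alone, 25 with edgeR, 4 from means per run, 4 to 23). The 38 rose where edgeR called 20.3% of all genes higher, against 7.52% in the main fit. The 33 rose without HS 3, where 14.3% of all genes did. Of the 25, 24 rose and 1 fell, where edgeR called 15.6% of all genes higher and 12.4% lower. The cause of these shifts was not tested, except that means per run leave fewer values. The share of all genes called moved between these fits too, so a shift in a count is not by itself a result about the genes counted. No value called changed direction in these alternatives; of the single-gene values, 132 lost and 133 gained their call and 2854 counts or values stayed on the same side. Without Sham 3 the plate term was dropped, since HS and plate then coincide. No paired analysis was possible because the labels give no replicate number that pairs samples across groups. Glomerular values rest on a median of 93104 reads, and limma's calls there may be too many, since simulated data gave calls of unchanged genes mostly in that area, and Hspa1a lay near the negative probe in Sham. Many Zfand2a values of Sham ROIs outside medulla were near it as well.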
